A study of Mus musculus with 2 samples.

Results

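The SOX genes described here are Sox4, Sox11, Sox12, Sox5, Sox6, Sox13, Sox8, Sox9 and Sox15, and a peak was taken as theirs where the deposited peak list names the gene. Of these 9 genes, 5 were listed for at least 1 peak, 8 peaks in all of 8730 in the list, and 4 were listed for none. The chromatin came from C57BL/6 mouse progenitor B cells of embryonic fetal liver that carried retroviral BirA (a biotin ligase), p190 Bcr-Abl (an oncogenic kinase that immortalizes the cells), SE-Cre and BAP-Sox4 (Sox4 with a tag that BirA biotinylates), added one after another with a sort following each. The series holds 1 streptavidin pull-down library of the tagged Sox4 and 1 input chromatin library of the same cells, so both carry every construct, and the antibody field of the pull-down reads SOX4. The peak list is that of the pull-down. With a single library there is no spread between replicates to set a difference against, and no test between conditions was made. The list holds no expression values, and the labelled cell type was not checked against its markers. A pull-down from cells lacking the tag was not analysed here, so a peak alone is not proof of Sox4 on DNA.

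SOX proteins bind the minor groove of DNA through an HMG box, bend it, and usually act with a partner factor on a nearby site. They fall into groups by the similarity of this box: Sox4, Sox11 and Sox12 form the SoxC group, Sox5, Sox6 and Sox13 the SoxD group, Sox8, Sox9 and Sox10 the SoxE group, and Sox15 stands alone in SoxG. Sox4 is needed for early B-cell development, while most other members are better known from the nervous system, cartilage, muscle and the gonad.

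The share of the 9 SOX genes with a listed peak was near that of genes in general, and most of their peaks lay outside the gene. A peak inside or at most 25 kb from the gene was listed for 5 of the 9 genes (55.6%, exact Clopper-Pearson 95% interval 21.2 to 86.3%), against 48.9% of the 20953 protein-coding genes examined. A peak within 5 kb of a transcription start site (TSS) was found at 3 of 9 (33.3%, 7.49 to 70.1%), namely Sox4, Sox12 and Sox13, against 32.8% of protein-coding genes. Only Sox13 had a peak over its TSS (11.1%, 0.281 to 48.2%), against 28.4%. With so few genes the intervals are wide and include the background share in each case. For a peak over a TSS this does not hold over all 20 genes of the family, while for a peak within 5 kb it does, as given below.

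**Figure D1:**
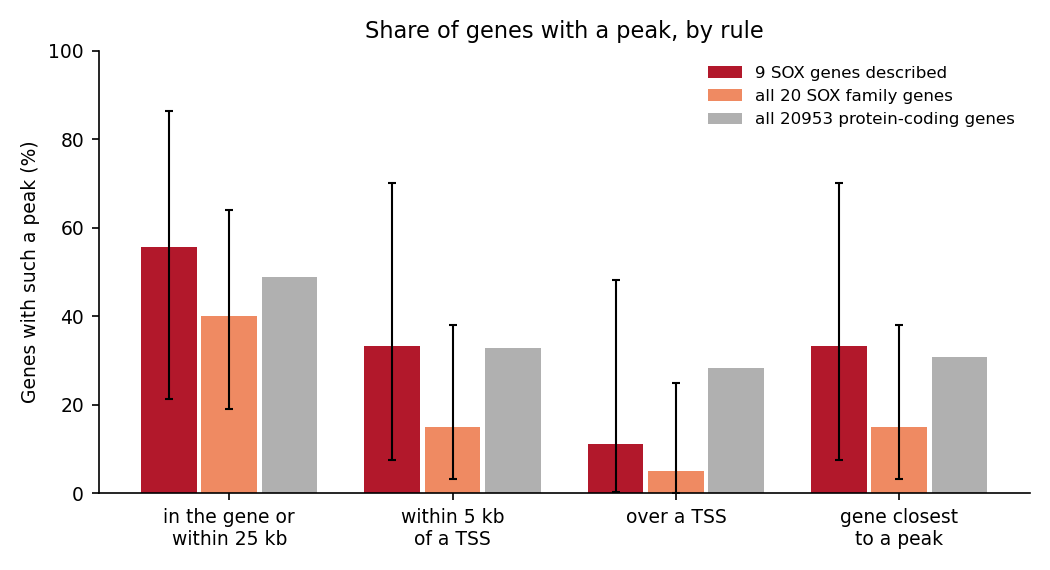
Share of genes with a peak under 4 rules (x axis) in percent (y axis), for the 9 SOX genes described, all 20 genes of the family and all 20953 protein-coding genes; error bars are exact Clopper-Pearson 95% intervals over genes, and the share of all genes is drawn without one. Of the 9 SOX genes, 5 were listed for a peak and 1 had a peak over its TSS.

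Sox4 itself, the gene of the factor that was pulled down, had a peak on either side of its transcript (NM_009238, chromosome 13, mm9 build) and none over it. The upstream peak (29049624 to 29051080) lay 4074 bp before the TSS, with its summit 4761 bp before it, and held 104 tags (exact Poisson 95% interval 85.0 to 126). The downstream peak (29034647 to 29035218) lay 7381 bp past the transcript end and held 43 tags (31.1 to 57.9). Their deposited position classes are promoter and downstream. The intervals of these tag counts do not overlap, but the peaks also differ in width, 1456 bp against 571 bp. Per kb of peak the counts were 71.4 tags upstream and 75.3 downstream. The fold over background, the peak caller's own value as deposited, was 3.73 upstream and 4.38 downstream. The higher tag count of the upstream peak therefore did not go with a higher density or fold. Its score, which rises as the peak caller's p falls (minus 10 log10 of p), was 141.08 and exceeded 65.9% of all peaks, and that of the downstream peak was 67.29 and exceeded 21.1%.

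Both peaks name Sox4 and no other gene, and 35.7% of the peaks that list any gene name exactly 1. Beyond the upstream peak the list had no further peak for 756 kb, up to a weak one inside Cdkal1 (39 tags, fold 4.22), the next protein-coding gene on that side. Of the 8710 distances between consecutive peaks, 8.83% were longer, and their median was 67.0 kb. This share counts each distance once, whatever its length, so it is not a share of genes or of the genome. On the other side the next peak stood 55.6 kb beyond the downstream one and 987 bp before the start of 2610307P16Rik, a long noncoding RNA gene (54 tags, fold 4.44). The start of that noncoding gene was covered by a stronger peak (164 tags, fold 6.63, score 302.29). The nearest protein-coding gene there in gene order, Prl5a1 of the prolactin family, had no listed peak. The Sox4 transcript spans 2952 bp by the deposited distances, and the Sox4 gene spans 4781 bp in the later RefSeq table, so a peak's distance from the gene end depends on the annotation. The cells also carry retroviral copies of Sox4, and whether their reads were placed on the Sox4 locus was not tested.

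**Figure D2:**
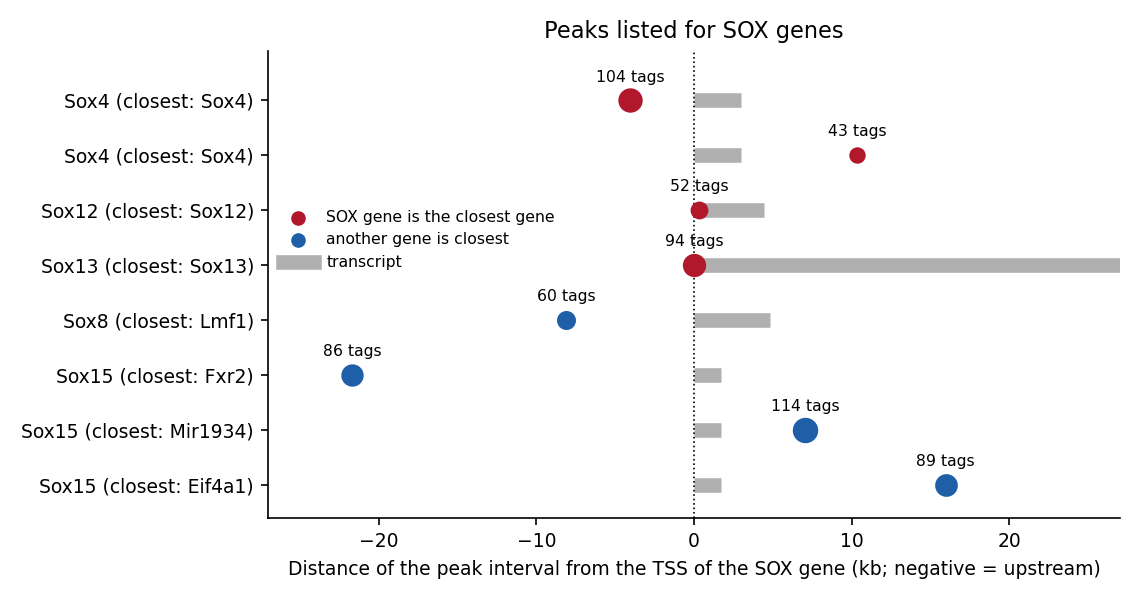
Distance in kb (x axis) of each of the 8 listed peaks from the TSS of the SOX gene it is listed for, 1 row per peak, with the closest gene of the peak named at the left. Circle area follows the tag count printed above it, grey bars are the transcripts (that of Sox13 runs off the axis), and the Sox13 peak covers the TSS and the Sox12 peak begins 308 bp past it, while the 3 Sox15 peaks lie 5.36 to 21.7 kb from the gene.

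Sox12, a SoxC gene that overlaps Sox4 in function in development, had 1 peak just inside its transcript (NM_011438, chromosome 2, 152222634 to 152223474, mm9). The interval began 308 bp after the TSS, its summit lay 501 bp after it, and the deposited position class is promoter. Its 52 tags (38.8 to 68.2) gave a fold of 3.53. By score (60.59) it stood above 13.8% of the list. This was the weakest by score of the 8 SOX peaks. Other genes listed for it were farther away: Zcchc3, a zinc finger protein gene whose end lay 14218 bp off, 6820408C15Rik, Nrsn2 and Gm14164. Nrsn2, the neuronal vesicle gene next to Sox12, had 4 listed peaks, the strongest with 71 tags at a fold of 8.32.

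Sox11, the third SoxC gene, which drives neuronal differentiation and is aberrantly switched on in mantle cell lymphoma, had no listed peak. The list was also empty between the peak at Cmpk2, the mitochondrial nucleotide kinase gene beside it (66 tags, fold 4.16), and that listed for Colec11, a lectin gene (63 tags, fold 5.33). These peaks end and begin 2166 kb apart, and 2.79% of the distances between consecutive peaks were longer. Within SoxC the gene of the pulled-down factor thus had 2 listed peaks, Sox12 had 1 and Sox11 had none.

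The reference promoters of Sox4 and Sox12 show what letters stand in front of these starts, and are printed because the peaks flank rather than cover them. They are the 250 bases before the annotated start from RefSeq (GRCm38.p6), 5′ to 3′ on the gene's strand. The SOX-type motif AACAAAG, which reads CTTTGTT on the other strand, the shorter ACAAAG or CTTTGT, which lies within it, and ACAAT or ATTGT were searched on both strands. None was found in either. Capitals mark CCAAT or ATTGG, the CCAAT box on either strand, a common promoter element that was added to the search after the sequences were seen.
Sox4 (chr13:28953700-28953949, minus strand): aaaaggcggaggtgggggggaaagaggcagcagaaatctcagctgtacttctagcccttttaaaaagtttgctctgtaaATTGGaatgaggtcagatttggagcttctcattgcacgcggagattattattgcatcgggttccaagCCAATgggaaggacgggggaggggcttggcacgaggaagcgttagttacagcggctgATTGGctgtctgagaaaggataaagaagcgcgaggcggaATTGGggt
Sox12 (chr2:152398047-152398296, minus strand): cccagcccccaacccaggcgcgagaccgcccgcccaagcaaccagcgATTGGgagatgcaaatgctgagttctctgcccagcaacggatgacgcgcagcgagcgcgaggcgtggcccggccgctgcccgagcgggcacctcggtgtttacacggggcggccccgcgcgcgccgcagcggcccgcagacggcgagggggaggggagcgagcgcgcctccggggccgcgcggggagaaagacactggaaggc
The Sox4 window holds 4 CCAAT boxes and the Sox12 window 1, and 33.8% of the 32851 promoters in the table hold at least 1. Their GC content differed, at 50.8% for Sox4 and 74.4% for Sox12, against a median of 52.4%. The peak intervals themselves could not be read, because no genome of the mm9 build was used here.

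Sox13, a SoxD gene known from lymphocyte and gamma-delta T-cell biology, had the only peak that covered the start of a described SOX gene (NM_011439, chromosome 1, 135319838 to 135321163, mm9). It held 94 tags (76.0 to 115) over 1325 bp, a width above that of 83.8% of peaks. Its fold of 3.49 exceeded that of 14.7% of peaks and its score of 83.3 exceeded 35.1%. The count of tags was thus in the upper part of the list and the fold in the lower part. No other gene was listed for this peak. The next peaks stood 291 kb away at the start of Ppp1r15b, a stress-response phosphatase subunit gene (fold 6.67), and 185 kb away at the start of Snrpe, a core spliceosome protein gene (fold 4.67).

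Sox6, a SoxD gene that acts with Sox5 and Sox9 in cartilage and silences embryonic globin genes, had no listed peak. From the peak listed for Pde3b to that listed for 1110004F10Rik the list was empty for 1676 kb, and 3.96% of distances between peaks were longer. In the RefSeq table Sox6 spans 569905 bp with 6 promoter entries, and 3 of these 6 hold AACAAAG or CTTTGTT. This motif is held by 5.03% of all promoters, and no other described SOX gene with a promoter entry holds it. The 3 Sox6 entries with it are 41.6, 41.6 and 45.2% GC, below the median of 52.4%, and the share was not matched for GC. The Sox13 promoter, which lies at a peak, and 1 Sox6 promoter, which does not, are printed to set these side by side, with matches to any of the motifs named above in capitals. The Sox6 entry was chosen after the matches were seen, as the one that holds all 3 SOX-type motifs, and the other 5 differ from it: one is 60.8% GC with a single CTTTGT or ACAAAG, and another holds neither that nor the longer motif.
Sox13 (chr1:133424213-133424462, minus strand): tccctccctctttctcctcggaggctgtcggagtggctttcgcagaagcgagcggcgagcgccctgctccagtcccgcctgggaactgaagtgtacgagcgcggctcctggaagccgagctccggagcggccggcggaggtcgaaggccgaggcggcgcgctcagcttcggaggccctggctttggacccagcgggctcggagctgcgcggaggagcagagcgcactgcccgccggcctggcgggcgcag
Sox6 (chr7:115995087-115995336, minus strand): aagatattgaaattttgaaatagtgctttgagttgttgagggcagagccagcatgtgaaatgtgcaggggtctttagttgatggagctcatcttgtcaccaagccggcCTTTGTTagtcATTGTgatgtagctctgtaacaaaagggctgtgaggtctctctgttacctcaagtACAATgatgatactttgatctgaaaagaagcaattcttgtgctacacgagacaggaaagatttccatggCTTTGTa
The Sox13 window holds none of these motifs and is 72.4% GC. The Sox6 window holds CTTTGTT once, a further CTTTGT at its end, ATTGT and ACAAT, and is 41.6% GC. Over the described genes, 8 had a promoter entry, 1 (Sox6) held ACAAAG or CTTTGT and 3 (Sox5, Sox6 and Sox15) held ACAAT or ATTGT, against 16.5% and 27.7% of all promoters. Genes with several entries have more chances of a match.

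Sox5, the closest relative of Sox6, was named by no peak, but the annotation matters for it. The gene spans 953863 bp in the RefSeq table, and the noncoding gene Sox5os3 lies wholly inside that span. Sox5os3 is listed under its older name 4933425H06Rik for a peak 1556 bp before its start (chromosome 6, 144618900 to 144619832, mm9). Its tag count was 95 (76.9 to 116), its fold of 9.71 was above that of 95.2% of peaks, and its score of 288.97 was above 88.6%. It was stronger in fold than each of the 8 peaks listed for a SOX gene, which ranged from 3.49 to 6.50. The deposited list does not name Sox5 for it, although it names genes up to 25 kb from a peak. Whether this peak falls inside the longest Sox5 transcript was not tested, since the table is of another build. A further peak with no listed gene (77 tags, fold 4.21) lay between it and Bcat1, the branched-chain aminotransferase gene on that side of Sox5. Of the 227 protein-coding genes that span 500 kb or more in the table, as Sox5 and Sox6 do, 24.7% had a listed peak.

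**Figure D3:**
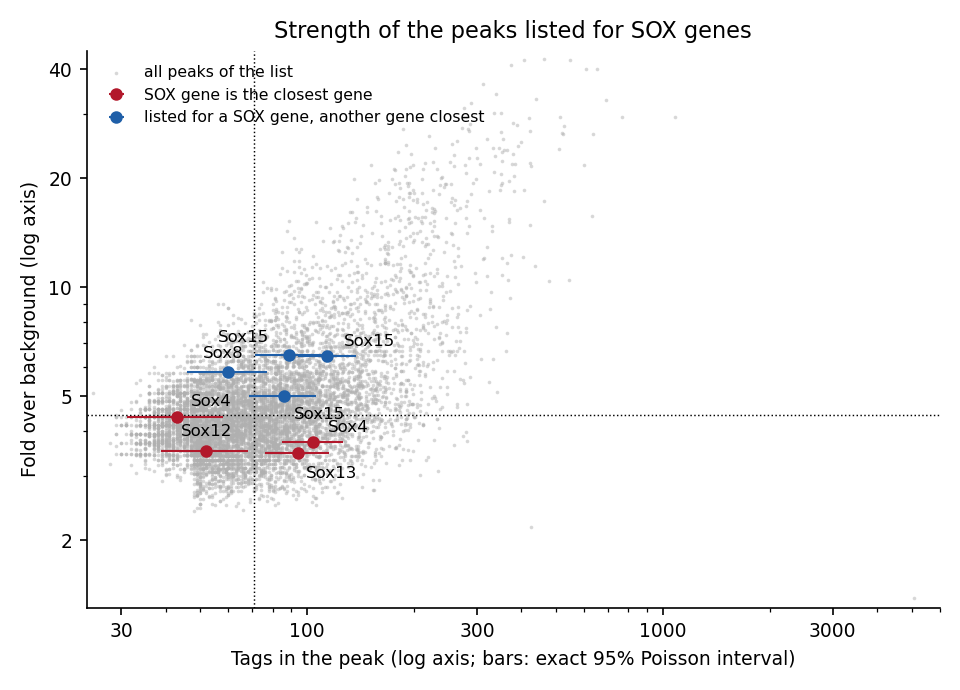
Tags per peak (x axis, log) against fold over background (y axis, log) for all 8730 peaks in grey and the 8 SOX peaks in colour, with exact Poisson 95% intervals on the tags; dotted lines are the medians of all peaks. The 4 peaks closest to a SOX gene lie below the median fold of 4.43 and the 4 that are closest to another gene lie above it.

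Sox15, the SoxG gene, which is active in muscle precursors and placenta, was listed for 3 peaks, the most of any described SOX gene, and was the closest gene of none. It is a short gene of 1691 bp in a dense stretch of chromosome 11. The first peak (69445839 to 69446857, mm9) lay 21682 bp before its TSS and covered the start of Fxr2, a relative of the fragile X protein, with 86 tags (68.8 to 106; fold 5.0, score 177.9). The second (69475591 to 69476691) lay 5363 bp past the end of Sox15. It covered the starts of Mir1934 and of Mpdu1, a gene of dolichol sugar metabolism, with 114 tags (94.0 to 137; fold 6.44), and its score of 344.34 was above 91.5% of peaks. The third (69484501 to 69485407) lay 14273 bp past the end and began 518 bp inside Eif4a1, the gene of a translation initiation helicase, with 89 tags (71.5 to 110; fold 6.50, score 169.61). The strongest of the 8 SOX peaks by score was thus one that covers the starts of other genes. Other genes listed for these peaks were Shbg, Sat2, Mir467f, Cd68, Senp3, Tnfsf13, Tnfsf12 and Tnfsfm13 (BC096441 in the list).

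Sox8, a SoxE gene of the gonad and neural crest, was listed for 1 peak, which lay 8100 bp before its TSS (NM_011447, chromosome 17, 25715730 to 25716510, mm9). The peak covered the start of Lmf1, a gene of lipase maturation, its closest gene. Its tag count was 60 (45.8 to 77.2), its fold of 5.82 was above 80.9% of peaks and its score of 111.01 above 53.1%. Cerox1, a noncoding RNA gene listed as 2810468N07Rik, ended 3743 bp away. The next peaks stood 110 kb and 148 kb away.

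Sox9, the SoxE gene that directs cartilage and testis formation, had no listed peak, and it lay in the longest empty stretch of the described genes. The list was empty from the peak listed for Fam20a, a secretory pathway pseudokinase gene (141 tags, fold 4.48), to that listed for Gprc5c, an orphan receptor gene (50 tags, fold 3.52). The stretch was 5221 kb long, and 39 of the 8710 distances between peaks (0.448%) were longer. Between these genes the table places 24 other protein-coding genes without a listed peak, 10 on the Fam20a side of Sox9 and 14 on the Gprc5c side, among them the potassium channel gene Kcnj2 and the zinc transporter gene Slc39a11. Gene order was taken from GRCm38.p6 and positions from mm9, so these stretches assume the same order in both builds. A gene with no listed peak must lie in a stretch longer than the gene as the list annotates it and 25 kb on each side. For Sox6, Sox11 and Sox9 the share of longer distances therefore does not show how unusual the stretch is for such a gene.

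**Figure D4:**
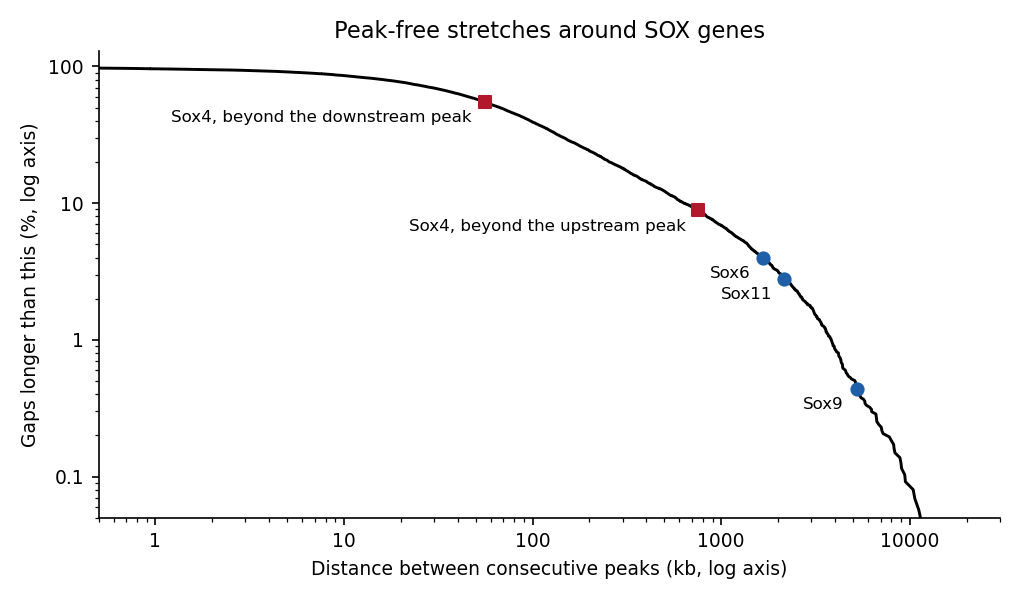
Percent of the distances between consecutive peaks (y axis, log) that are longer than a given distance in kb (x axis, log), as a line over all 8710 distances, each counted once whatever its length. Circles mark the empty stretches that hold Sox6 (1676 kb), Sox11 (2166 kb) and Sox9 (5221 kb), and squares mark the distances from the 2 Sox4 peaks to the next peak outward (55.6 and 756 kb).

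The peaks divided by their closest gene. For the 4 peaks whose closest gene was the SOX gene (2 at Sox4, 1 each at Sox12 and Sox13) the fold ranged from 3.49 to 4.38 with a median of 3.63, and the median score was 75.3. For the 4 whose closest gene was another (3 listed for Sox15, 1 for Sox8) the fold ranged from 5.0 to 6.50 with a median of 6.13, and the median score was 174. The fold values of these sets do not overlap, and the median of all peaks, 4.43, lies between them. In density the order was the same, with medians of 71.2 and 91.4 tags per kb against 75.8 for all peaks. The scores do overlap, with 141.08 at the upstream Sox4 peak above the 111.01 at the Sox8 peak. The tag counts overlap too, at 43 to 104 against 60 to 114. The division by fold and density was noticed in the values and rests on 4 peaks each from 1 library. It is less clear over the whole family, where 3 more peaks listed for a SOX gene were closest to another gene. Of these, that of Sox18 had a fold of 4.39, next to the 4.38 of the downstream Sox4 peak, and that of Sox30 had 4.58. In density, those of Sox10 (65.0 tags per kb) and Sox30 (71.5) lay within the range of the peaks closest to their SOX gene, 61.9 to 75.3.

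The protein-coding neighbours of the SOX genes were also read, 1 on each side of each gene in gene order. Of these 18, 12 had a listed peak and 8 had a peak over a TSS, beside 48.9% and 28.4% of all protein-coding genes. These counts are not independent of the SOX peaks: 4 of the 12 (Zcchc3, Fxr2, Mpdu1 and Lmf1) were listed for SOX peaks alone, which leaves 8 with another peak and 5 with such a peak over a TSS. The peaks over a start were at Cmpk2 beside Sox11, Snrpe beside Sox13, Fxr2 and Mpdu1 beside Sox15, Etnk1 and Bcat1 beside Sox5, 1110004F10Rik beside Sox6 and Lmf1 beside Sox8. Etnk1, an ethanolamine kinase gene, had 139 tags at a fold of 5.37. The 6 without a listed peak were Prl5a1, Dcdc2c, Etnk2, Insc, Kcnj2 and Slc39a11.

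In the whole family of 20 SOX genes, 8 were listed (40%, 19.1 to 63.9%) and 3 were the closest gene of a peak (15.0%, 3.21 to 37.9%), against 48.9% and 30.7% of protein-coding genes. A peak over a TSS was found at 1 of the 20 (5.0%, 0.127 to 24.9%), an interval below the 28.4% of protein-coding genes. This count leaves out Sox12, whose peak begins 308 bp past its TSS. Within 5 kb of a TSS the count was 3 of 20 (15.0%, 3.21 to 37.9%), an interval that includes the 32.8% of protein-coding genes. The low share was thus seen only under the narrow rule of a peak over a TSS. The 3 family genes with a peak within 5 kb of a TSS are all among the 9 described, so the choice of genes matters. The 3 listed genes not described above were reached only from the starts of other genes. Sox10, of neural crest and glia, was listed for a peak 13234 bp past its end that covered the starts of Polr2f and 1700088E04Rik (48 tags, fold 6.01). Sox18, of vessels, was listed for a peak 21646 bp before its TSS at the start of Rgs19 (93 tags, fold 4.39). Sox30, of male germ cells, was listed for a peak 24461 bp before its TSS at the start of Thg1l (60 tags, fold 4.58). Of the 8 listed family genes, 5 were thus the closest gene of none of their peaks, compared with 37.2% of the 10250 listed protein-coding genes, and 1 had a peak over its TSS, compared with 58.1%. The family genes with no listed peak were Sry, Sox1, Sox2, Sox3, Sox5, Sox6, Sox7, Sox9, Sox11, Sox14, Sox17 and Sox21. Sry lies on the Y chromosome, where the list has no peak and from which no background gene was taken.

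Genes of other HMG-box factors that bind specific DNA sequences had a peak at most of their starts. Of Lef1, Tcf7, Tcf7l1, Tcf7l2, Hbp1, Cic and Bbx, 6 of 7 had a peak within 5 kb of a TSS (85.7%, 42.1 to 99.6%) and 5 had one over it (71.4%, 29.0 to 96.3%), beside 32.8% and 28.4% of all protein-coding genes. The highest scores were at Hbp1, a cell-cycle repressor gene (201 tags, fold 7.26, score 502.57), at Lef1, whose protein partners beta-catenin (247 tags, fold 5.31), at Cic, a repressor of receptor-kinase targets (106 tags, fold 3.94), and at Tcf7l1 (63 tags, fold 3.64). Tcf7l2 had no listed peak. Of 7 genes tied to the SOX4 protein as partners or reported targets, namely Sdcbp, Ctnnb1, Trp53, Ezh2, Dicer1, Tead2 and Tubb3, all had a listed peak and 6 had one over a TSS (85.7%, 42.1 to 99.6%), beside 48.9% and 28.4% of all protein-coding genes. The highest score was at Ezh2, the Polycomb methyltransferase gene (354 tags, fold 10.78). The next highest was listed for Tead2, a Hippo pathway factor gene, but lay 22594 bp from its TSS and was closest to Cd37 (165 tags, fold 11.64). Trp53, the p53 gene (188 tags, fold 4.03), and Dicer1, the gene of the enzyme that cuts microRNA precursors (110 tags, fold 7.40), followed. Both lists were written with earlier results of these data known, and the difference from the SOX genes was not tested.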

How the data were processed

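The submitters' processing notes name the aligner Bowtie (0.12.8), the peak caller MACS (1.4.2) and build mm9, with no parameters. Use of the input as control and library depths are not given in the sources used here. The deposited tag number is a raw count of reads per peak, 763284 in all. The fold over background was used as deposited. How it was computed was not checked here, so it need not be the tag number of the peak divided by an expected number. The score column deposited by the authors was taken to be minus 10 log10 of p, since the lowest is 50.03, just above the usual threshold of 1e-05. These values are the authors' own and rank peaks within this list only. Deposited distances run in bp from the peak interval, 0 where it overlaps the site.

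Of 15228 listed transcripts, 14992 matched the RefSeq gene table (GRCm38.p6) by accession, 192 by symbol, 32 by an older symbol and 12 not at all. The background was all protein-coding genes on the autosomes and X that have an NM transcript. Shares have exact Clopper-Pearson and tags exact Poisson 95% intervals (Python 3.11.15, scipy 1.17.1), for counting error only. The counting code was tested on simulated peaks with known answers, which is no test of the counts against chance. Members and lists were chosen with earlier results of these data known. Named were all members, every gene of their peaks, gene-order neighbours, listed family genes, list members (values for the 4 highest scores) and genes with a layout like Sox4. A planned comparison of protein sequences was not made. One gene of a list is not reported here, and the shares of the lists do not include it.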

Additional observations from a re-analysis of the deposited data

How the results depend on the processing

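The counts depend on the peaks retained and on the assignment to genes, and the share of all protein-coding genes moved with them. The 5 of 9 SOX genes with a listed peak became 3 among the 4365 peaks scoring above the median (Sox4, Sox15 and Sox8, against 31.5% of all genes), 2 among peaks of fold 5 or more (Sox15 and Sox8, 22.6%), 3 when a peak counted for its closest gene only (Sox4, Sox12 and Sox13, 30.7%) and 3 with a flank of 5 kb (the same genes, 37.4%). With a flank of 10 kb the count was 5 (40.8%). For the 20 family genes, the count of 8 became 5, 3, 3 and 3 in these settings, and 5 with a flank of 10 kb. The 3 genes with a peak within 5 kb of a TSS became 1 among peaks above the median score (Sox4, 18.9%), 0 among peaks of fold 5 or more (11.9%) and 5 with a window of 20 kb (41.9%). They were 2 with a window of 1 kb (30.2%) and 3 by closest gene (27.6%). No paired analysis was possible because each kind of library has 1 sample, and for the same reason none was left out. Library depth is unknown here, so a gene without a listed peak had none past the peak caller's threshold, which does not show that Sox4 was absent.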

Other observations

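The layout at Sox4 was exactly 2 listed peaks, 1 before the TSS and 1 past the transcript end with none over the gene. It was shared by 381 protein-coding genes, Sox4 included, beside 10250 with a listed peak and 20953 examined. By the distance between log2 tag counts of both peaks, the 3 most like Sox4 were Ccdc153 (112 tags upstream and 43 downstream, distance 0.107), Cryba4, a lens crystallin gene (109 and 40 tags, 0.124), and Avil, an actin-binding protein gene (93 and 44 tags, 0.165). In each of these at least 1 of the peaks was closest to another gene, such as Cbl for Ccdc153, Tpst2 for Cryba4 and Ctdsp2 for Avil. Of the 381 genes, 9 were the closest gene of both peaks. Singled out after their values were seen, these 9 were Sox4, Vpreb2, Lgmn, Tnfrsf13c, Emp3, Alox5ap, Hrh2, Scgb1a1 and Asah2. How often genes of other layouts are the closest gene of all their peaks was not counted. Vpreb2, a surrogate light chain gene of progenitor B cells with a near-identical copy (Vpreb1), had 66 tags 10691 bp upstream and 45 tags 3119 bp past its end. Tnfrsf13c, the gene of the B-cell survival receptor for BAFF, had 59 tags 9459 bp upstream and 47 tags 2336 bp past its end. These 2 genes are described for their known roles in B cells. The other genes, Lgmn, Emp3, Alox5ap, Hrh2, Scgb1a1 and Asah2, held 36 to 67 tags upstream and 38 to 83 past the end. Whether the layout goes with B-cell genes was not tested. At Sox4 the upstream peak held 104 tags and was the highest of these 9 upstream peaks in tags and score but not in fold, where its 3.73 was below 6 of the other 8.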
